A study of Mus musculus with 7 samples.

Results

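Bipolar cells are the interneurons that carry signals from rods and cones to the inner retina, and 9 genes known from them were followed in ribosome-bound RNA isolated from the retinas of adult mice. The genes are Grm6, Trpm1, Gng13, Gpr179, Prkca, Pcp2, Cabp5, Isl1 and Vsx1, chosen by symbol, and all 9 were found among the 12756 genes of the table. The study compared mice given an antibody to the Notch ligand Dll4, in 4 libraries, with mice given a control IgG in 3 libraries. All mice were adult C57BL/6 animals that carried Cdh5-CreERT2, a tamoxifen-inducible Cre under the promoter of an endothelial cadherin, and Rpl22 tm1.1Psam, which puts an HA tag on a ribosomal protein once Cre has acted. The labels give neither doses nor times, nor the number of mice per library. The p-values therefore measure the spread between these libraries, which may be in part technical.

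ON bipolar cells depolarise in light because their glutamate receptor, mGluR6, works through a G protein that keeps a cation channel, TRPM1, closed in the dark. Light lowers the release of glutamate from photoreceptors, the cascade is relieved and the channel opens. Rod bipolar cells use this cascade, as do ON cone bipolar cells, whereas OFF cone bipolar cells answer glutamate with ionotropic receptors.

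Each library had between 1356192 and 1771086 reads over the genes of the table, and values are CPM, the reads of a gene per 1000000 of these reads. The libraries are labelled as retinal endothelial, and the 18 endothelial markers that were measured summed to 0.455% to 0.568% of all CPM in anti-Dll4 libraries and to 0.213% to 0.323% in control libraries. The 16 rod markers summed to 1.48% to 2.68% in anti-Dll4 libraries and to 3.1% to 3.23% in control libraries, so the rod markers outweighed the endothelial markers in every library. The 9 bipolar genes summed to 0.105% to 0.181% of all CPM in anti-Dll4 libraries and to 0.146% to 0.19% in control libraries. No library of RNA from before the pull-down was analysed here, so depletion or enrichment of bipolar RNA was not measured. The tag depends on a Cre under an endothelial promoter, so these values need not follow the RNA of bipolar cells. Fewer cells of a type, less RNA per cell and less untagged RNA carried through the pull-down cannot be told apart.

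The windows around the start sites of 4 of these genes are shown because the results below turn on them, Trpm1 having the most reads, Gng13 and Gpr179 being the members whose groups did not overlap, and Cabp5 being a member that was at 0 in a library. Each runs from 250 bases before to 50 bases after the first listed start, 5′ to 3′ on the strand of the gene, and was taken from RefSeq on GRCm38.p6. All 9 genes matched this table by symbol, with 14 start windows between them. Capitals mark TAATCC or, on the other strand, GGATTA, the core read by the homeodomain proteins OTX2 and CRX, which the Gng13 and Gpr179 windows do not hold.
Trpm1, plus strand, chr7:64153585-64153884: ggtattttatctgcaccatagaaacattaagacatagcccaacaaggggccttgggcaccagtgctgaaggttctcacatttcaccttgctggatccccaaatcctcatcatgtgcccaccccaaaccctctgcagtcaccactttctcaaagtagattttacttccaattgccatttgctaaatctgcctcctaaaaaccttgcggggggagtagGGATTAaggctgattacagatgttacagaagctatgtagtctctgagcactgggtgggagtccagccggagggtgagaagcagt
Cabp5, plus strand, chr7:13397905-13398204: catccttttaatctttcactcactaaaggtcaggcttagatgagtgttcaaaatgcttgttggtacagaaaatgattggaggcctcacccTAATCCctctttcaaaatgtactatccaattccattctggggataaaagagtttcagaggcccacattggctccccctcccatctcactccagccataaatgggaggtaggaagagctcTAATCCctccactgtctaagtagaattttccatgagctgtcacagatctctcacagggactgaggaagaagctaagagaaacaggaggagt
Gng13, plus strand, chr17:25716922-25717221: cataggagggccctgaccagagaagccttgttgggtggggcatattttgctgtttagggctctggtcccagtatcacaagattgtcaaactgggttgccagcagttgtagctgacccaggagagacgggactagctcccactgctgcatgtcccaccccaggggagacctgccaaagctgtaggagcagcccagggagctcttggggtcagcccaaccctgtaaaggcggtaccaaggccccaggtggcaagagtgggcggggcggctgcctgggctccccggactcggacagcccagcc
Gpr179, minus strand, chr11:97352307-97352606: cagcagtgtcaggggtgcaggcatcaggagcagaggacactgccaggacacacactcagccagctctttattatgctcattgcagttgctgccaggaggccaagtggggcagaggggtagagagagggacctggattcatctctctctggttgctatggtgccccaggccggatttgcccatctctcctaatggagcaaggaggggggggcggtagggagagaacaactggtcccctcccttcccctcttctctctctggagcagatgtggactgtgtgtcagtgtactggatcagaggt

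The TAATCC core occurred on either strand in 3 of the 14 windows, and in 7.06% of all 32851 windows of the same length. In Trpm1 it began 34 bases before the start, in Cabp5 160 and 41 bases before it, and in Isl1, which is not shown, 177 bases before it. The window of Vsx1, a member that was also at 0 in some libraries and is not shown, does not hold the core. TAATTA, a palindrome read by VSX-type homeodomains, occurred in 1 of the 14 windows, that of a Pcp2 start, and in 5.29% of all windows. These are matches of letters and say nothing of binding.

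The test found no member changed. After conversion to log2(CPM + 1), limma tested the 10899 genes that reached 1 CPM in 3 or more libraries, all 9 members among them, with Benjamini-Hochberg adjustment over all genes. At an adjusted p under 0.05, 0 of the 9 members were called in either direction, where 0.119% of all genes were called, all of them higher. At an unadjusted p under 0.05 the count was again 0, both in limma and in limma's voom on whole reads, where 7.09% of all genes passed in limma. The log2 change was negative for 8 of the 9, as it was for 54.5% of all genes. The median log2 change of the members was -0.60, beside -0.14 over all genes tested, and without anti-Dll4 1 these were -1.14 and -0.17. Groups did not overlap for 2 of the 9, Gng13 and Gpr179, both lower in the anti-Dll4 libraries, which was so for 3.75% of all genes, and 0 were higher without overlap, as 3.84% of all genes were.

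**Figure D1:**
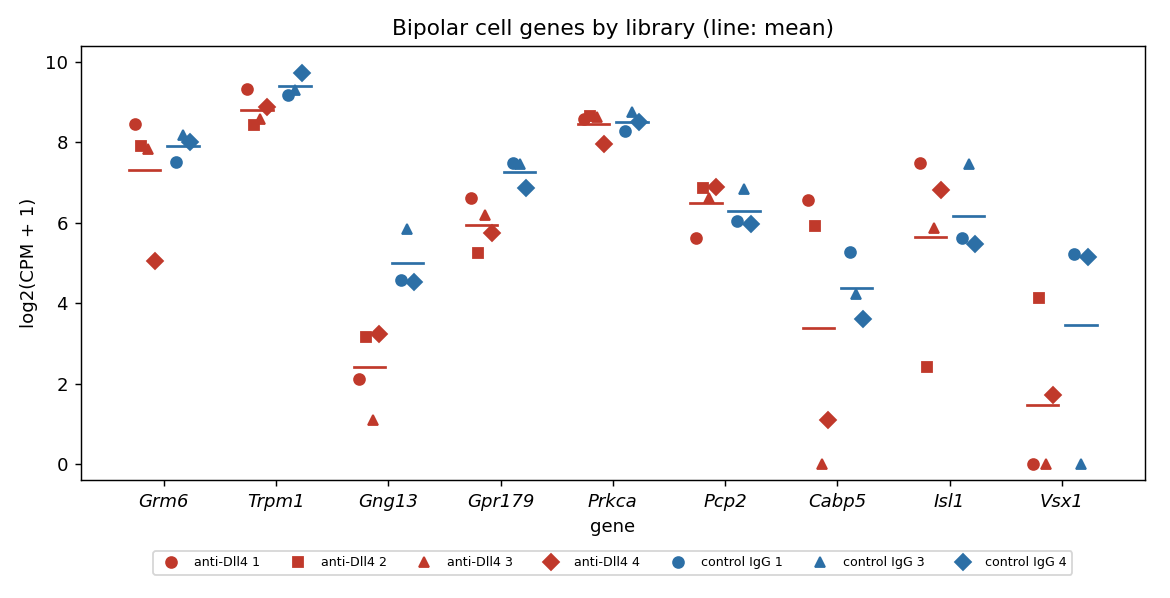
Level of each of the 9 genes on the log2(CPM + 1) scale in the 4 anti-Dll4 libraries (red) and the 3 control IgG libraries (blue), with a marker shape per library number and a line at the mean of each group. All red points lie below all blue points for Gng13 and Gpr179 only, and Cabp5, Isl1 and Vsx1 spread widely within groups.

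Grm6 encodes the mGluR6 receptor at the tips of ON bipolar dendrites. It had 354, 240.4, 227 and 32.2 CPM in anti-Dll4 libraries 1 to 4, against 183, 292 and 255 CPM in control libraries 1, 3 and 4. Anti-Dll4 4 was the lowest of the 7 libraries and anti-Dll4 1 the highest, so the groups overlap. The log2 change was -0.59 ± 0.65 (SE), with a 95% interval of -1.94 to 0.76 (limma adjusted p = 0.884). Without anti-Dll4 4 it was 0.17, so a single library set its direction.

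Trpm1 encodes the cation channel at the end of the cascade, which pigment cells also make. It had 647, 347, 379.5 and 469.8 CPM in the anti-Dll4 libraries and 577, 636 and 846 CPM in the control libraries. Of the anti-Dll4 libraries, 3 lay below every control library and anti-Dll4 1 lay among them. The means were 461 ± 135 CPM (SD, n = 4) in anti-Dll4 and 686 ± 141 CPM (SD, n = 3) in control libraries. The log2 change of -0.60 ± 0.34 (95% interval -1.31 to 0.12) did not pass (limma adjusted p = 0.742), and it stayed between -0.77 and -0.44 when any library was left out.

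Gng13 encodes the G protein gamma subunit that pairs in ON bipolar cells with the beta subunit Gnb3. It had 3.35, 7.95, 1.13 and 8.47 CPM in the anti-Dll4 libraries, from 5, 13, 2 and 15 reads. It had 23.0, 56.8 and 22.2 CPM in the control libraries, from 39, 77 and 34 reads. Every anti-Dll4 library lay below every control library. The ratio of mean CPM, anti-Dll4 over control, was 0.154, and the log2 change was -2.59 ± 1.61 (95% interval -5.93 to 0.75, limma adjusted p = 0.760). This SE is not the spread of Gng13 alone, as limma draws it towards that of genes of like level. Without the mean-variance trend it was 0.80 (limma adjusted p = 0.624). An exact permutation test of the library values alone gave p = 0.0286 (two-sided), the smallest possible with 4 and 3 libraries, and 0.771 after adjustment over all genes. The direction was the same under all 20 alternative settings tried, from -3.44 to -1.89. Much of this was fixed beforehand. With groups that do not overlap, leaving out a library could not turn the sign. Settings that changed only the filter, the trend or the test kept the change at -2.59.

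The last 481 bases of Gng13 lie over the end of Chtf18, a clamp-loading factor of DNA replication on the opposite strand, in GENCODE M21. Whether reads were counted by strand is not stated. Reads shared by Pcp2 and Pet100, also on opposite strands, were entered for both genes, as given below. Reads in the bases shared by Gng13 and Chtf18 may thus count for both too. Chtf18 had 30.8, 0, 0.566 and 35.6 CPM in the anti-Dll4 libraries and 20.1, 24.3 and 18.2 CPM in the control libraries. Anti-Dll4 2 had 13 reads of Gng13 and 0 of Chtf18, and anti-Dll4 3 was low in both. In control libraries 1 and 4 Gng13, at 23.0 and 22.2 CPM, stood little above Chtf18. The part of such shared reads in the Gng13 values was not tested, nor was whether the groups stay apart without them.

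Gpr179 encodes an orphan receptor that holds RGS proteins, which speed the shut-off of the G protein, at the dendritic tips. It had 96.4, 36.7, 71.9 and 53.1 CPM in the anti-Dll4 libraries and 177, 174 and 115 CPM in the control libraries. The highest anti-Dll4 library lay below the lowest control library. Means were 64.5 ± 25.7 CPM (SD, n = 4) in anti-Dll4 and 155 ± 35.2 CPM (SD, n = 3) in control libraries, a ratio of 0.416. The log2 change of -1.31 ± 0.67 (95% interval -2.70 to 0.08) did not pass (limma adjusted p = 0.707), and the exact permutation p was 0.0571 (two-sided, unadjusted). Its range over the settings was -2.31 to -0.68, with the same direction in all 20. Here too, leaving out a library could not turn the sign, as the groups do not overlap. Settings that changed only the filter, the trend or the test kept the change at -1.31.

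Prkca encodes protein kinase C alpha, the usual stain of rod bipolar cells, which endothelial and other cells make too. It had 384, 405, 393 and 250.1 CPM in the anti-Dll4 libraries and 309, 433 and 364 CPM in the control libraries. Levels in the groups coincided apart from anti-Dll4 4, the lowest of the 7. The log2 change was -0.05 ± 0.38, with a 95% interval of -0.85 to 0.74 on the CPM as deposited (limma adjusted p = 0.987), and -1.06 ± 0.43 with libraries scaled on endothelial markers (limma adjusted p = 0.193). It turned to 0.11 without anti-Dll4 4 and to 0.07 without control IgG 3.

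Pcp2 encodes a GoLoco-domain protein of rod bipolar cells and cerebellar Purkinje cells that binds G protein alpha subunits. Its row held 48.2, 116, 96.9 and 117 CPM in the anti-Dll4 libraries and 64.9, 114 and 61.3 CPM in the control libraries. The groups overlap, and the log2 change of 0.21 ± 0.69 was the one positive value among the 9 (95% interval -1.23 to 1.66, limma adjusted p = 0.967). These reads cannot be given to Pcp2 alone. In GENCODE M21 the whole gene lies inside Pet100, an assembly factor of cytochrome c oxidase on the opposite strand, and in the table Pet100 had the same number of reads as Pcp2 in 5 of 7 libraries and 2 to 8 reads more in the other 2. Reads in the shared interval were thus entered for both genes.

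Cabp5 encodes a calcium-binding protein of rod bipolar cells and some cone bipolar cells. It had 93.1, 59.9, 0 and 1.13 CPM in the anti-Dll4 libraries and 37.8, 17.7 and 11.1 CPM in the control libraries. The anti-Dll4 group held both the 2 highest and the 2 lowest values. The 0 reads of anti-Dll4 3 allow up to 3 reads, 1.7 CPM. Mean CPM was higher in anti-Dll4 libraries (38.5, against 22.2 in control) while the log2 change was -0.97 ± 1.79 (95% interval -4.70 to 2.76, limma adjusted p = 0.939). It was 0.16 without anti-Dll4 3, so no direction can be given.

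Isl1 encodes a LIM homeodomain factor of ON bipolar cells that starburst amacrine and ganglion cells share. It had 179, 4.28, 57.8 and 111 CPM in the anti-Dll4 libraries and 47.8, 174 and 43.0 CPM in the control libraries. The means were alike, at 88.2 ± 74.9 CPM (SD, n = 4) in anti-Dll4 and 88.3 ± 74.3 CPM (SD, n = 3) in control libraries, with a wide spread in both groups. The log2 change of -0.53 ± 1.06 (95% interval -2.72 to 1.67, limma adjusted p = 0.942) turned to 0.55 without anti-Dll4 2, the library with 7 reads, and to 0.11 without control IgG 3.

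Vsx1 encodes a homeodomain factor of cone bipolar cells. It had 0, 16.5, 0 and 2.26 CPM in the anti-Dll4 libraries and 36.6, 0 and 34.5 CPM in the control libraries. Both groups held libraries without a read, where 3 reads would be 1.7 to 2.21 CPM. The log2 change, -2.0025 with an SE of 1.67, did not pass (95% interval -5.48 to 1.47, limma adjusted p = 0.834). It was -3.73 without control IgG 3 and -1.12 and -1.16 without control IgG 1 or 4.

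**Figure D2:**
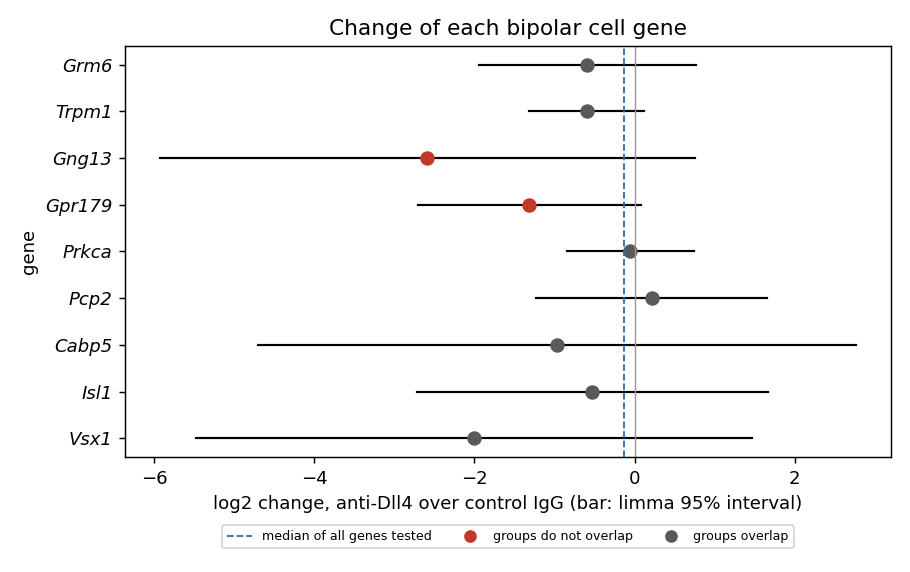
Log2 change, anti-Dll4 over control IgG, of each of the 9 genes with its limma 95% interval, the dashed line marking the median of all genes tested at -0.14. Red points are the members whose groups did not overlap, and every interval includes 0.

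The members differed in how steady they were. On the log2(CPM + 1) scale the SD between anti-Dll4 libraries was 0.33 for Prkca, 0.40 for Trpm1 and 0.59 for Gpr179, but 3.33 for Cabp5, 2.26 for Isl1 and 1.95 for Vsx1. Over all genes tested the median SD was 1.56 in anti-Dll4 and 1.05 in control libraries. The spread exceeded counting error in every member, least for Gng13 in the anti-Dll4 libraries, whose coefficient of variation was 68.3% where counting alone gives 33.8%. Isl1, with 7 to 268 reads in the anti-Dll4 libraries, had a coefficient of variation of 84.9% where counting alone gives 8.35%. For Prkca the same values were 20.3% and 4.11%. Over the 9 genes the observed variation was 2.02 to 11.6 times the counting error in the anti-Dll4 libraries and 3.49 to 9.51 times in the control libraries.

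No library was low in every member. Anti-Dll4 1 had the highest value of all 7 libraries for Grm6, Isl1 and Cabp5 and the lowest for Pcp2. Anti-Dll4 2 was lowest for Trpm1, Isl1 and Gpr179, anti-Dll4 3 for Cabp5 and Gng13, and anti-Dll4 4 for Grm6 and Prkca. No control library was alone at the bottom for any of the 9. How often that held over all genes was not counted, and there were 4 anti-Dll4 against 3 control libraries. The summed CPM of the members was 1805, 1233.6, 1226 and 1046 in anti-Dll4 libraries 1 to 4, against 1455, 1898 and 1751 in control libraries. Anti-Dll4 1 lay among the controls and the other anti-Dll4 libraries lay below them. Without Trpm1 the sums were 1158, 887, 847 and 576 CPM in the anti-Dll4 libraries and 879, 1262 and 905 CPM in the control libraries, so that anti-Dll4 2 also lay above a control library, and the ratio of mean sums, anti-Dll4 over control, was 0.854.

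**Figure D3:**
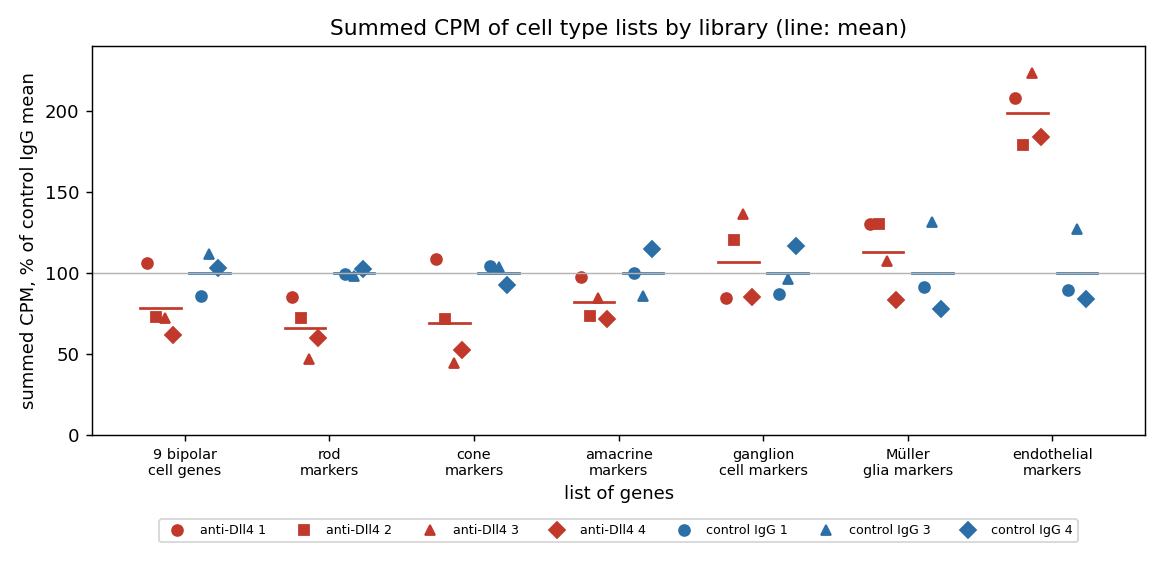
Summed CPM of the 9 bipolar cell genes and of marker lists of other retinal cells, as a percentage of the control IgG mean, in each library (red, 4 anti-Dll4; blue, 3 control IgG; line, group mean). The anti-Dll4 means lie below 100% for bipolar, rod, cone and amacrine lists and at 1.98 times the control mean for the endothelial list.

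Markers of other retinal cells were summed in the same libraries. The ratio of mean summed CPM, anti-Dll4 over control, was 0.780 for the 9 bipolar genes, 0.659 for 16 rod markers, 0.692 for 12 cone markers and 0.818 for 11 amacrine markers. It was 1.07 for 12 ganglion cell markers, 1.13 for 11 Müller glia markers and 1.98 for 18 endothelial markers. Summed levels did not overlap between groups for the rod and endothelial lists and overlapped for the cone, amacrine, ganglion cell and Müller glia lists. Every gene of the table had at least 10 reads over the 7 libraries, so none could be at 0 in all of them. Genes absent from the table were left out of the sums. It held 11 of 12 amacrine, 11 of 12 Müller glia and 18 of 19 endothelial markers. The part that the lower photoreceptor share and the higher endothelial share have in the bipolar values was not tested. Set against rod markers, the bipolar sum was 64.9 ± 13.5 CPM per 1000 CPM of rod markers (SD, n = 4) in anti-Dll4 and 53.9 ± 7.44 (SD, n = 3) in control libraries. These ranges overlap, at 53.9 to 83.1 in anti-Dll4 and 46.3 to 61.2 in control libraries.

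Against rod markers, Gpr179 no longer separated the groups, with 1.60 to 4.87 CPM per 1000 CPM of rod markers in anti-Dll4 and 3.55 to 5.63 in control libraries. Gng13 still did, with 0.0767 to 0.449 in anti-Dll4 and 0.686 to 1.83 in control libraries. Trpm1 had 22.5 ± 4.92 in anti-Dll4 and 21.7 ± 4.05 in control libraries, which differ by less than their spread.

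A scaling shifts all genes of a library alike, so changes are also given relative to the median gene. With libraries scaled on rod markers, the median log2 change of all genes moved to 0.40 and that of the members to 0.038, and Grm6 (0.042), Trpm1 (0.038), Prkca (0.58) and Isl1 (0.094) turned positive. With libraries scaled on endothelial markers, the median of all genes moved to -1.002 and that of the members to -1.60. Under that scaling Trpm1 passed with a log2 change of -1.60 ± 0.40 (limma adjusted p = 0.0483), as 1.07% of all genes did in the same direction, and Pcp2 turned to -0.78. Relative to the median of all genes, the median of the members was lower by 0.46 as deposited, 0.45 on median-of-ratios factors, 0.36 on rod markers and 0.60 on endothelial markers. Under each of these 4 scalings 7 or 8 of the 9 members lay below the median gene.

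**Figure D4:**
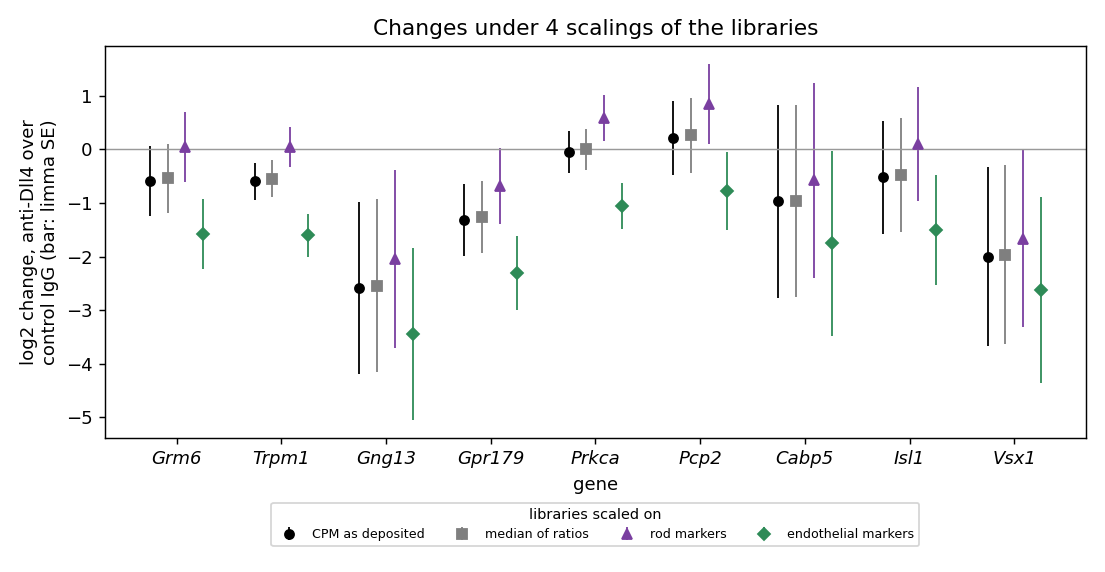
Log2 change, anti-Dll4 over control IgG, of each gene with the CPM as deposited (circles) and with libraries scaled on median-of-ratios factors (squares), rod markers (triangles) or endothelial markers (diamonds), with limma standard errors. Gng13, Gpr179, Cabp5 and Vsx1 stay below 0 under all 4 scalings.

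Other genes of bipolar cells were read from 5 lists, which together held 59 genes, 50 of them measured and 42 tested, 9 being the members. Each list holds members and some genes stand in several lists. The counts and medians of single lists below thus recount members. Over the 42, limma called 0 and 3 had an unadjusted p under 0.05, all lower, as 3.41% of all genes were, and voom called 0. The change was negative for 32 and positive for 10, with a median of -0.59. For the 33 that are not members the median log2 change was -0.59, with 24 negative, where 54.5% of all genes were, and groups did not overlap for 3, all lower, as for 3.75% of all genes. Both counts of 3 are of the same genes, Fezf2, Gabrr2 and Cacna1s. Of these, Cacna1s reached 1 CPM in the control libraries only. Passing the filter thus fixed that its groups did not overlap and that it was lower.

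In the mGluR6 cascade, 9 of 12 genes were tested, with 7 negative and a median of -0.59. The members among them, Grm6, Trpm1, Gng13 and Gpr179, were all negative, and the median is the value of Grm6. Of the other genes, Gnao1, Rgs7 and Gnb5 were negative, and Gnb3 and Rgs11 were positive. Gnb3, the beta subunit that pairs with Gng13, had 256, 183, 295 and 329 CPM in the anti-Dll4 libraries and 108, 248 and 88.0 CPM in the control libraries. Its log2 change was 0.96 ± 0.51 (limma adjusted p = 0.713), opposite in sign to that of Gng13. Gng13 stood at 0.384 to 4.35 CPM per 100 CPM of Gnb3 in anti-Dll4 libraries and at 21.3 to 25.2 in control libraries. That pair was set side by side after its values were seen. In the anti-Dll4 libraries the ratio rests on 2 to 15 reads of Gng13, and Gng13 reads may include some shared with Chtf18. Gnb5, the beta subunit that partners the RGS proteins, had a log2 change of -0.59 ± 0.35 (limma adjusted p = 0.751). Nyx and Rgs7bp were not analysed here, and Lrit3 was under the filter, with 12 reads in control IgG 1 and 0 elsewhere.

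Among rod bipolar genes 8 of 9 tested were negative, with a median of -0.97. That list recounts the members Grm6, Trpm1, Gpr179, Prkca, Pcp2 and Cabp5, and its median is the value of Cabp5. Its other tested genes, Vstm2b, Sebox and Strip2, were all negative. Vstm2b had a log2 change of -1.72 ± 1.10 (limma adjusted p = 0.765) and Sebox, a homeobox gene, -1.53 ± 1.22 (limma adjusted p = 0.820). Sebox had 46, 163, 72 and 2 reads in the anti-Dll4 libraries and 113, 107 and 82 in the control libraries, so that anti-Dll4 4 was again the lowest. Among cone bipolar genes 7 of 10 tested were negative, with a median of -1.30. Cabp2, a relative of Cabp5, had 0, 0, 0 and 3 reads in the anti-Dll4 libraries and 33, 0 and 12 in the control libraries (log2 change -2.14 ± 1.11, limma adjusted p = 0.711).

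Of the transcription factors 9 of 12 were negative, with a median of -0.83. Fezf2, a zinc finger gene, had 0, 1, 0 and 2 reads in the anti-Dll4 libraries and 9, 8 and 96 in the control libraries, without overlap. Its log2 change was -3.37 ± 1.31 (limma adjusted p = 0.637). Lhx3, a LIM homeobox gene, had 10, 0, 0 and 0 reads in the anti-Dll4 libraries and 97, 0 and 15 in the control libraries (log2 change -2.36 ± 1.42, limma adjusted p = 0.751). The well-measured Otx2, a homeodomain factor of photoreceptors and bipolar cells that was named after its values were seen, had a change of 0.03 ± 0.32 (limma adjusted p = 0.989).

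Of the synapse and calcium-binding genes 13 of 16 tested were negative, with a median of -0.67. Gabrr2, a rho subunit of the GABA receptor on bipolar terminals, had 31, 12, 0 and 2 reads in the anti-Dll4 libraries and 88, 71 and 196 in the control libraries, without overlap. Its log2 change was -4.01 ± 1.60 (limma adjusted p = 0.662). Cacna1s, an L-type calcium channel subunit, had 0, 0, 1 and 0 reads in the anti-Dll4 libraries and 51, 38 and 2 in the control libraries (log2 change -3.51 ± 1.24, limma adjusted p = 0.528). In the anti-Dll4 libraries both rest on few reads, and neither passed. The direction of Cacna1s was fixed by the filter, which it passed through the control libraries only.

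**Figure D5:**
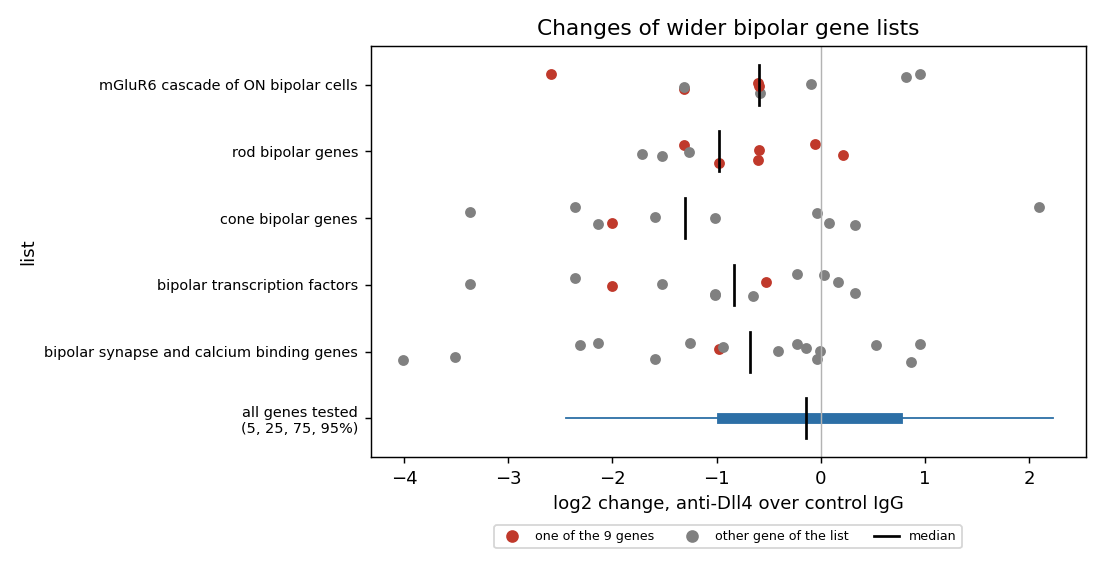
Log2 change, anti-Dll4 over control IgG, of the tested genes of 5 bipolar gene lists (red, one of the 9 genes; grey, other genes; black line, list median), above the spread of all genes tested (thin bar, 5th to 95th percentile; thick bar, 25th to 75th). The list medians run from -1.30 to -0.59, beside -0.14 for all genes; lists share members.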

How the data were processed

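RNA bound to HA-tagged ribosomes was sequenced with QuantSeq, a method of reading transcripts at their 3′ ends, as single-end reads of 75 bases, per the labels' protocols. The submitters' processing notes name cutadapt, TopHat2, bedtools and hg19, a human build, although the symbols are mouse symbols. The sources used here do not state the annotation, the counting rule or the use of strand. The deposited values are log10 of CPM plus 1. Converted back, the CPM summed to 1000000 per library, and 100% of values were whole reads (tolerance 1e-06), used for voom. Control column 1 matches no control title by number and was used as an unnumbered control.

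log2(CPM + 1) was tested with limma 3.58.1 in R 4.3.3, with a mean-variance trend, after a filter of 1 CPM in 3 libraries. The design assumed log CPM and kept its test. The code was tested on simulated data. Overlaps of genes came from GENCODE M21. Members, lists and the rule for naming (all members, and per list those past the threshold or the 2 non-members with the smallest p) were chosen with earlier results of these data known. Intervals from reads cover counting error only, and no molecular identifiers are named. The alternatives covered the pseudocount, filter, trend, library weights, scaling, voom, exact permutation, libraries left out and replicate blocks.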

Additional observations from a re-analysis of the deposited data

Results flagged for a closer look

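Prkca in anti-Dll4 4, at 250.1 CPM, stood apart from the other anti-Dll4 libraries (384, 405 and 393 CPM). Its gap to the nearest library was 0.889 of the range of the group on the log2(CPM + 1) scale, above the 95% limit of Dixon's test for 4 libraries. Of 10 such checks, over the 9 members and their sum, this was the 1 past the limit, and chance flags about 1 in 20 groups.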

How the results depend on the processing

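The count of members past the threshold was 0 as reported and under 19 of 20 alternatives, and so was that of the wider bipolar lists. The exact permutation test could call no gene, since its smallest possible p adjusted to 0.771, so it adds nothing to that count. Limma without the trend called 0 of all genes, so its 0 says little of the members. Scaling on endothelial markers gave 1 for each, Trpm1 in both. Leaving out each library in turn gave 0 to 0 for both counts. Over all genes, 13 higher and 0 lower calls became 3 and 117 on endothelial markers, 60 and 0 on rod markers and 14 and 24 with voom, and 0 without the trend. With a library left out they ran from 3 (without anti-Dll4 4) to 20 (without control IgG 3), all higher. On rod markers the median change of the members turned to 0.038, with Grm6 at 0.042, Trpm1 at 0.038, Prkca at 0.58 and Isl1 at 0.094, and on endothelial markers Pcp2 turned to -0.78. Other turns of sign came from single libraries: without anti-Dll4 2 Isl1 was 0.55, without anti-Dll4 3 Cabp5 was 0.16, without anti-Dll4 4 Grm6 was 0.17 and Prkca 0.11, and without control IgG 3 Prkca was 0.07 and Isl1 0.11. With a library left out, changes ran from -0.97 to 0.17 for Grm6, -0.17 to 0.11 for Prkca, -1.14 to 0.55 for Isl1, -2.03 to 0.16 for Cabp5 and -3.73 to -1.12 for Vsx1, and the median of the members from -1.14 (without anti-Dll4 1) to -0.60. The cause was not tested. Gng13, Gpr179 and Vsx1 kept a negative sign under all 20. For Gng13 and Gpr179, whose groups do not overlap, leaving out a library could not have turned it. Settings that changed only the filter, the trend or the test kept the change of every member, Vsx1 included, as it was. They could not have turned a sign either.

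A replicate block on title numbers, which libraries 3 and 4 of both groups share, gave 0 members called and a median change of -1.18. Libraries alone in their block add nothing to that change, which rests on libraries 3 and 4 of each group. A block on column numbers gave 0 members and Isl1 at 0.55. Anti-Dll4 2 is alone in its block there, so the changes of the members equal those found without anti-Dll4 2. Deviations of same-numbered libraries from their group means correlated at 0.05 for columns 1 and 3 and 0.07 for column 4. Those of all other pairs correlated at -0.04 to 0.02, below every same-numbered pair. These correlations are small and do not settle whether the numbers pair the libraries. The main test treated the libraries as unpaired. Depth limits Vsx1, Cabp5 and Gng13 most: 3 reads are 1.69 to 2.21 CPM.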

Other observations

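Anti-Dll4 4 had 2 reads of Sebox, 2 of Cabp5 and 57 of Grm6, but 832 of Trpm1 and 1398 of Otx2. These genes were set side by side after their values were seen.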
